A study of Drosophila melanogaster with 3 samples.

Results

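Mediator and TFIID are the large assemblies that RNA polymerase II needs at promoters, and their subunit genes were examined here as targets of Su(var)3-7. The 40 members were the protein-coding genes of the Ensembl BDGP6 annotation whose symbol is MED or Taf followed by a number: 25 Mediator genes and 15 TFIID genes, out of 13968 protein-coding genes. Su(var)3-7 has zinc fingers and is known from fruit fly heterochromatin. Its binding was mapped by chromatin immunoprecipitation and sequencing (ChIP-seq) with an anti-GFP antibody on sonicated chromatin. The study had 1 group of 3 biological replicates, each of Drosophila melanogaster embryos of both sexes aged 0 to 24 h from a transgenic line expressing Su(var)3-7 with GFP at its C-terminus. All replicates carried the tag, so no untagged group was compared; the labels do not say what promoter drives the transgene, and whole embryos mix many cell types. The values were peak lists that hold no read numbers, and sequencing depth is therefore unknown: 30000 relaxed regions ("peaks and background") per replicate and for the pooled replicates, and a thresholded list of 4055 peaks. The thresholded peaks were the strongest 4055 regions of the pooled list. Their signals, on the authors' scale, began at 119, where the median of the pooled list was 52.9.

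Mediator carries signals from sequence-specific activators to RNA polymerase II. It is built from head, middle and tail modules on the MED14 backbone, with a kinase module that comes and goes. TFIID, made of the TATA-binding protein Tbp and its associated factors (TAFs), recognises core promoter elements and starts assembly of the polymerase complex. Several TAFs pair through histone folds, and some also serve in the SAGA acetyltransferase complex.

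Su(var)3-7-GFP peaks stood at the start sites of 12 of the 40 genes, 9 of them Mediator genes, led by MED30, MED27 and Taf4. A gene was counted when the list placed a summit no more than 500 bp from a start site of the gene. Thresholded peaks were found at 9 of 25 Mediator genes (36.0%, 95% Wilson interval 20.2 to 55.5) and at 3 of 15 TFIID genes (20.0%, interval 7.05 to 45.2), and 18.4% of all protein-coding genes had one. For the 40 genes together the share was 30.0% (interval 18.1 to 45.4), and each of these intervals covers counting of genes only. The intervals of Mediator and TFIID overlap over most of their length, and those of TFIID and of the 40 genes together include the value for all genes. All are given as a description, not as a test. Another 19 members had only a relaxed pooled region at a start site, with signals from 35.6 to 102, and 9 had none. A pooled region of any strength was thus present at 31 of the 40 genes (77.5%), against 51.9% of all protein-coding genes. The median signal at a start site, with genes without a region set to 0, was 83.0 for Mediator genes, 81.3 for TFIID genes and 36.4 for all genes. No test was made between the lists, since the members were chosen with results of these data known.

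**Figure D1:**
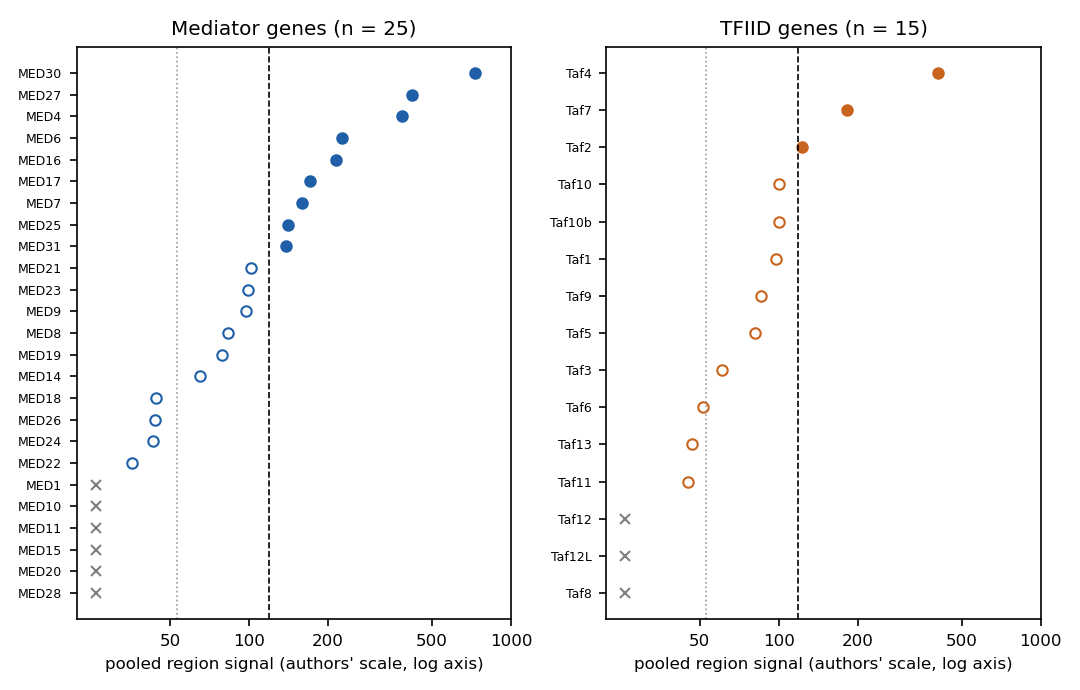
Strongest pooled region within 500 bp of a start site for each Mediator gene (left) and TFIID gene (right), on a logarithmic axis of the authors' signal; filled points are thresholded peaks, open points relaxed regions, and crosses genes with no pooled region there. The dashed line marks the lowest thresholded signal (119) and the dotted line the median of the pooled list (52.9); 12 genes lie to the right of the dashed line, led by MED30 at 726 and Taf4 at 404.

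The tail module of Mediator, which activators contact, had peaks at 4 of the 9 genes listed for it, the middle module at 3 of 9, the head at 2 of 7 and the backbone at 0 of 1, where 18.4% of all protein-coding genes had one. The modules differ by single genes, with membership taken from textbook knowledge and ix, the fly MED29, counted in the tail. The strongest of all members was at MED30 (chr3L:654063-654441 on dm6, signal 726, rank 130 of 4055). Its signal was 10.6, 13.3 and 10.2 times the median of the list in replicates 1, 2 and 3, a mean of 11.3 ± 1.67 (SD, n = 3). All 3 replicates ranked this region among their strongest 153. MED27 came next (chr3R:5654860-5655125, signal 419), at 7.16, 6.68 and 6.50 times the list median in the 3 replicates, or 6.78 ± 0.338 (SD, n = 3). Its values differed little between replicates, while those of MED16 spread more. MED16 (chr2R:22182904-22183327, signal 214) stood at 4.15, 4.10 and 2.06 times, or 3.44 ± 1.20 (SD, n = 3), with replicate 3 low. Its strongest summit lay 48 and 22 bp upstream of the start site in replicates 1 and 2, but 205 bp upstream in replicate 3. MED25 (chr3R:20008640-20009063, signal 141) had modest values of 2.63, 2.77 and 2.27 times, which were not all from the same place. The strongest summit lay 342 bp upstream in replicate 1, and 66 and 50 bp upstream in replicates 2 and 3.

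In the middle module, which contacts the polymerase, MED4, MED7 and MED31 carried peaks. MED4 (chr3L:7250610-7250722, signal 384) was the strongest of them, at 6.48, 6.31 and 4.78 times the list median, or 5.85 ± 0.939 (SD, n = 3). Its summit fell at the same place in every replicate, 125 to 126 bp upstream of the start site, inside an exon of the annotated antisense RNA asRNA:CR43470. MED7 (chr3R:10760864-10761287, signal 159) reached 2.92, 2.32 and 2.41 times. MED31 (chr3R:4641630-4642053, signal 138) reached 2.25, 1.65 and 2.93 times, so replicate 2 was low there and ranked the region 6212th, outside its strongest 4055. In the head module, which binds the polymerase and the general factors, the peaks were at MED6 and MED17. MED6 (chr3R:9767776-9767881, signal 227) stood at 2.36, 4.44 and 3.86 times, with replicate 1 low. It has 5 annotated start sites, and the summit lay 2 bp upstream of the nearest but 1167 bp inside the gene from the first. MED17 had a pair of thresholded summits, 28 bp upstream of its start site (chr3R:18188982-18189105, signal 170.1) and 278 bp upstream (chr3R:18188582-18189005, signal 159). The strongest summit lay 3 bp downstream of the start site in replicate 2, and 260 and 295 bp upstream in replicates 1 and 3. The backbone gene MED14 had no peak, with a pooled signal of 65.0.

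Among the TFIID genes the peaks were at Taf4, Taf7 and Taf2. Taf4 encodes a histone-fold subunit that holds the complex together. Its peak (chr3L:16113559-16113789, signal 404) was the most even of the 12 across replicates, at 6.35, 6.44 and 6.40 times the list median, or 6.40 ± 0.0454 (SD, n = 3). The gene has 3 start sites: the summit lay 148 bp upstream of the nearest and 430 bp downstream of the first, in no annotated exon. Taf7 encodes a partner of Taf1, the largest subunit, and its peak (chr3R:7907255-7907678, signal 183) stood at 2.61, 3.53 and 1.62 times, with replicate 3 low. Taf7 has 2 start sites, and was the only one of the 12 whose thresholded summit lay downstream of the nearest start site, by 134 bp, in its own exon. Taf2 encodes a subunit that contacts DNA around the initiator, and its peak was close to the threshold (chr3L:9888545-9888968, signal 123, rank 3837), at 1.40, 2.08 and 1.97 times. Only replicate 3 held Taf2 among its strongest 4055 regions. Of the 8 genes listed as histone-fold TAFs, Taf4 was the 1 with a peak (12.5%, against 18.4% of all genes), a share from which nothing is read; Taf9 and Taf3, which also have histone folds, are not on that list and had no peak.

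**Figure D2:**
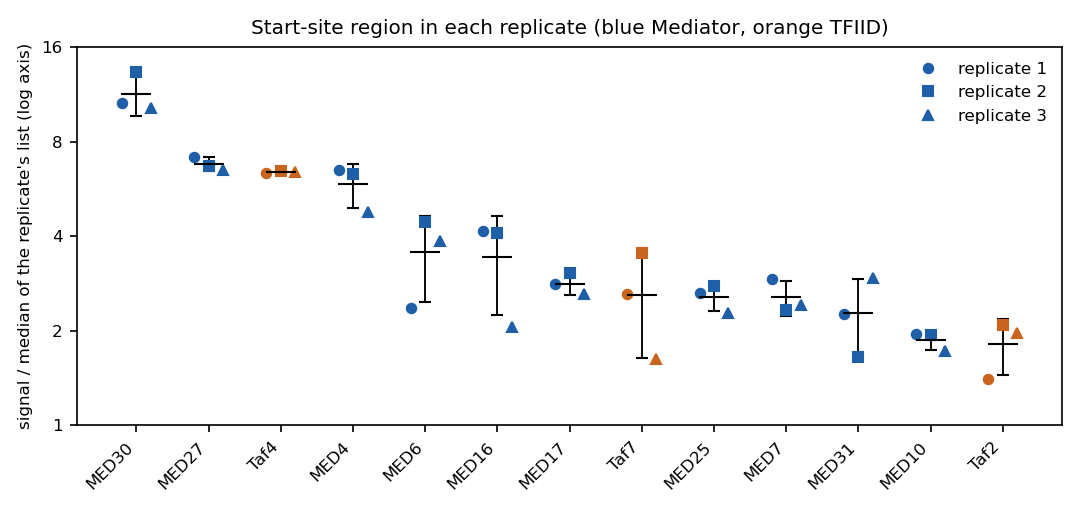
Signal of the strongest region within 500 bp of a start site in each replicate, divided by the median of that replicate's list, on a logarithmic axis, for the 12 genes with a thresholded peak and MED10; bars are the mean and SD of the 3 replicates. MED30 is highest in all 3 replicates (10.2 to 13.3), Taf4 has the smallest SD (0.0454), and MED10, without a pooled region, lies at 1.72 to 1.95.

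The members without a thresholded peak ranged from just under the threshold to no listed region. The nearest to it were MED21 of the middle module (signal 102), the TFIID genes Taf10 and Taf10b (100.4 for their shared region), MED23 of the tail (98.9), Taf1 (97.5) and MED9 of the middle module (97.2). MED21 stood at 1.96, 1.33 and 1.66 times the list median in replicates 1, 2 and 3, below the strongest 4055 regions in all 3. The Taf10 and Taf10b region differed between replicates: it was at 2.41 times and rank 2858 in replicate 1, at 1.35 times in replicate 3, and was not listed in replicate 2. Taf9 (85.3), MED8 (83.0), Taf5 (81.3), MED19 (78.6), MED14 and Taf3 (60.8) followed, and MED18, MED22, MED24, MED26, Taf6, Taf11 and Taf13 lay at 35.6 to 51.2, at or under the median of the pooled list. MED1, MED10, MED11, MED15, MED20, MED28, Taf8, Taf12 and Taf12L had no pooled region at a start site. Taf12L, a testis relative of Taf12, had none in any of the 4 relaxed lists, and the same held for MED11, MED15 and Taf12.

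MED10, a middle module gene, went against this pattern. Each replicate listed a region at its start site, at 1.95, 1.94 and 1.72 times the list median (1.87 ± 0.130, SD, n = 3) and at ranks 4216, 4769 and 4989, yet the pooled list had none within 500 bp. Of 1990 protein-coding genes with a start-site region ranked within 5000 in all 3 replicates, 9 likewise had no pooled region; MED10 is the member among them. In no replicate did it reach the strongest 4055 regions.

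In the replicates taken singly, the Mediator share was above the TFIID share each time, with a wide spread for TFIID. Among each replicate's strongest 4055 regions, a start-site summit was present at 10, 8 and 10 of the 25 Mediator genes in replicates 1, 2 and 3, or 37.3% ± 4.62 (SD, n = 3). TFIID genes gave 5, 2 and 2 of 15, or 20.0% ± 11.5 (SD, n = 3). Over all protein-coding genes the shares were 18.7%, 17.7% and 18.5%. The Mediator values of 32.0% to 40.0% were above the values for all genes in each replicate, whereas the TFIID values were above them in replicate 1 and below them in replicates 2 and 3. The 3 TFIID genes that replicate 1 added, Taf1, Taf10 and Taf10b, carry no thresholded peak. Taf10 and Taf10b were counted through the same region of replicate 1 (rank 2858), so its 5 TFIID genes stand for fewer regions. Of the 12 genes with a thresholded peak, 9 had a start-site summit among the strongest 4055 in each replicate. Of all 2577 protein-coding genes with a thresholded peak, 1691 did. The other members with a peak were MED31 and Taf7, each in 2 replicates, and Taf2, in 1. At Taf2 and Taf7 the calls therefore rested on fewer replicates than at Taf4.

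**Figure D3:**
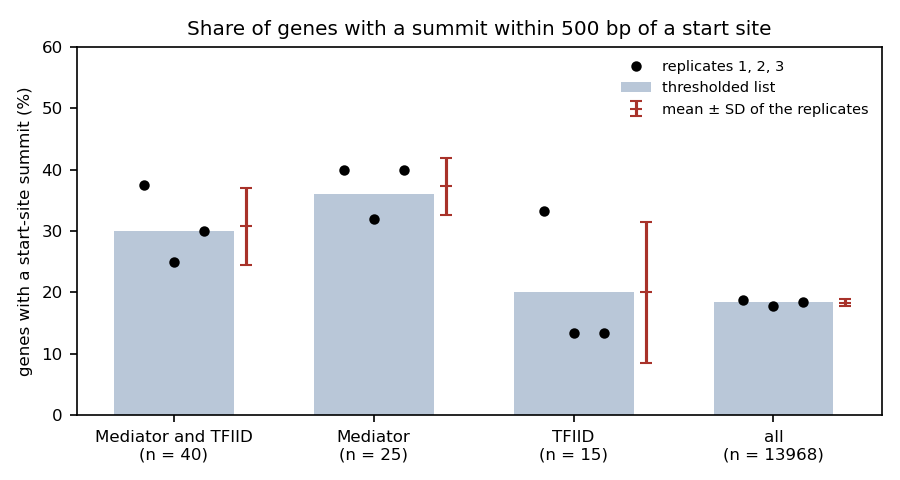
Percentage of genes with a start-site summit (500 bp limit): bars for the thresholded list, points for the strongest 4055 regions of replicates 1, 2 and 3 from left to right, and mean ± SD of the replicates to the right of each bar. The Mediator points lie at 32.0% to 40.0%, those of TFIID at 13.3% to 33.3%, and those of all 13968 protein-coding genes at 17.7% to 18.7%.

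Most peaks of these genes lay between paired, divergent promoters. Of the 12 peaks, 10 (83.3%) had a start site of another protein-coding gene within 500 bp of the same summit, against 53.7% of all genes with a peak. Such a peak cannot be assigned to one gene of the pair. The summit was nearer to the neighbour in 5 of the 10 (MED30, MED27, MED31, Taf7 and Taf2) and nearer to the member in the other 5. At MED30 it lay 209 bp upstream of the member and 65 bp upstream of Rev1, which encodes a translesion DNA polymerase. At MED27 it lay 168 bp upstream of the member and 110 bp upstream of elm. At MED7 the summit lay 44 bp upstream of the member and 234 bp upstream of Cap-H2, a condensin II subunit gene. The remaining neighbours were CG11170 (MED16), CG12321 (MED17), Hs6st (MED25, a heparan sulfate sulfotransferase gene), Naa80 (MED6, an actin N-acetyltransferase gene), EMC1 (Taf7, a gene of the ER membrane complex), CalpB (Taf2, a calpain gene), and CG9775 and slx1 (MED31, which shares its start site with slx1). No start site of another protein-coding gene lay within 500 bp of the MED4 or Taf4 summit; start sites of non-coding genes were not searched, and the MED4 summit lies in the exon of asRNA:CR43470 named above.

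**Figure D4:**
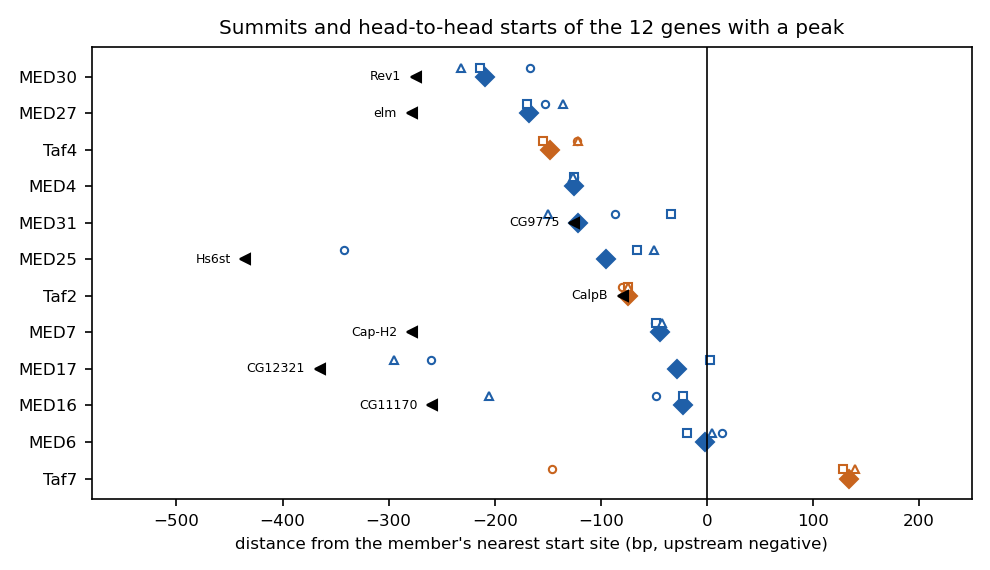
Positions of the summits at the 12 genes with a peak, in bp from the member's nearest start site. Diamonds are thresholded summits, and open circles, squares and triangles the strongest regions of replicates 1, 2 and 3. Black triangles mark the start of a head-to-head gene within 500 bp, and are not drawn for MED6 and Taf7, which have several start sites. At genes with several start sites, marks in one row may be measured from different ones, so their spacing is not read. Thresholded summits run from 209 bp upstream (MED30) to 134 bp downstream (Taf7). Of the 12, 11 lie upstream (91.7%), against 83.4% of all protein-coding genes with a peak.

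A head-to-head arrangement was common among the members, and most of their peaks were at such genes; this split was chosen after the values were seen. A start site of another gene on the opposite strand lay within 500 bp upstream at 26 of the 40 members (65.0%), against 27.3% of all protein-coding genes. Of those 26 members, 10 (38.5%) carried a peak, and of all genes with such a neighbour 35.2% did. Of the 14 members without one, 2 (14.3%) carried a peak, MED4 and Taf4, and of all genes without one 12.1% did. Within each class the share of the 40 members together was within a few percentage points of that of all genes, but the 2 complexes differed. For Mediator genes the shares were 8 of 17 (47.1%) and 1 of 8 (12.5%), and for TFIID genes 2 of 9 (22.2%) and 1 of 6 (16.7%). With a neighbour, Mediator genes were thus above and TFIID genes below the 35.2% of all genes. None of these differences was tested.

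**Figure D5:**
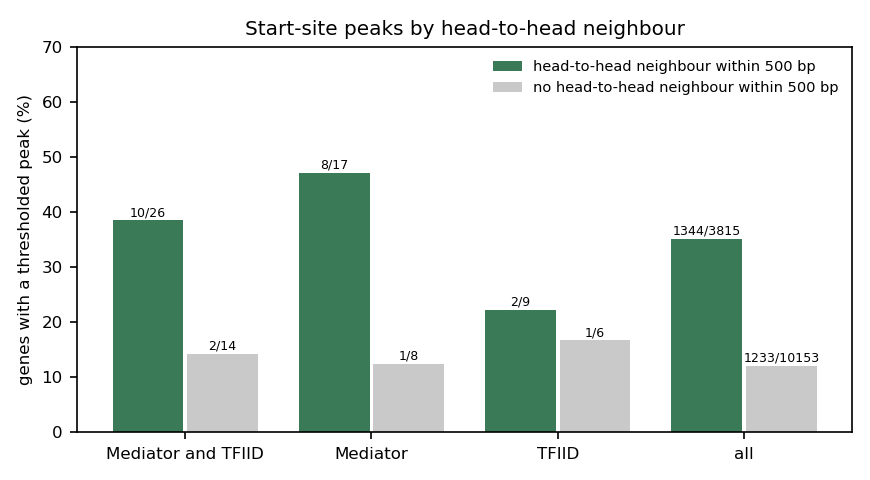
Percentage of genes with a thresholded start-site peak among genes with (green) and without (grey) a head-to-head protein-coding start site within 500 bp upstream; the numbers of genes stand above the bars. The members as a whole (10 of 26 and 2 of 14) lie near all genes (1344 of 3815 and 1233 of 10153) in both classes.

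By the gap between head-to-head starts, all 5 members with 201 to 300 bp carried a peak (MED16, MED30, Taf7, MED27 and MED7). The gap of Taf7 (275 bp) is that from the later of its 2 start sites. At every other gap most members lacked one: 2 of 10 carried a peak at up to 100 bp (MED6 and Taf2), 1 of 5 at 101 to 200 bp (MED31), 2 of 6 at 301 to 500 bp (MED17 and MED25) and 1 of 5 at 501 to 1000 bp (Taf4). Among all protein-coding genes the shares for these gaps, from 201 to 300 bp and then in the same order, were 42.6%, 32.1%, 33.1%, 32.3% and 20.1%. The bins hold few members, and no difference between them was tested. The stretches between the starts are shown as examples: those of the strongest pair of shared member peaks, and 4 short ones without a peak. Length and peak did not go together throughout: MED6 (19 bp) and Taf2 (79 bp) had a peak at a short gap, while Taf6 (333 bp), MED19 (415 bp) and MED8 (464 bp) had none at a long one. They are RefSeq sequence of the Release 6 assembly (dm6), read 5′ to 3′ on the strand of the member, with CGATA on either strand and CAGCTG in capitals; TATCGATA, the DRE element, holds CGATA on both strands. With a peak, the stretch from Rev1 to MED30 covers chr3L:654090-654362 (minus strand) and that from elm to MED27 chr3R:5654862-5655138 (plus strand).
MED30: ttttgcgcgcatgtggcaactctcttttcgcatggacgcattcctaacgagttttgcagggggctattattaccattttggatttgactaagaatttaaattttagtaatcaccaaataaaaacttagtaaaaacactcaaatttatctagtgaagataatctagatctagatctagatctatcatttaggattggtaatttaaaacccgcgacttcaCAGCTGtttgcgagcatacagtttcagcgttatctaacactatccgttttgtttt
MED27: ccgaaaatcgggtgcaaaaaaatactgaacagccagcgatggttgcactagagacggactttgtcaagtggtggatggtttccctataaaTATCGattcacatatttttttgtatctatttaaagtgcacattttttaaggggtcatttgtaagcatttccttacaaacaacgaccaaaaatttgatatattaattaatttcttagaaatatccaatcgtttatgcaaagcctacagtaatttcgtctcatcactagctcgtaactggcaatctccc
Without a thresholded peak, the stretches are those from Taf10b to Taf10 (chr2L:2767846-2767889, plus strand), from Trf, which encodes a relative of Tbp, to MED20 (chr2L:8072849-8072894, minus strand), from PDCD-5 to MED10 (chr3L:16232039-16232083, plus strand) and from CG4553 to MED28 (chr3R:25476916-25477002, plus strand).
Taf10: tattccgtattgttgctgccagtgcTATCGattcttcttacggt
MED20: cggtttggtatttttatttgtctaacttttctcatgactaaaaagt
MED10: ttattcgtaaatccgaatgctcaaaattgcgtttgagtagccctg
MED28: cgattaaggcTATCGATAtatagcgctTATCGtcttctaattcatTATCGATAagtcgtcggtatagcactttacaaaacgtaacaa
The MED28 stretch holds TATCGATA at 2 places and has no pooled region within 500 bp of the start site, while the MED30 stretch, with the strongest peak of the members, holds none. These are single examples picked with their values known, and a link between the DRE and peaks was not tested.

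No motif searched was present within 100 bp of more than 5 of the 12 member summits. Within 200 bp, TATAAA and TCAGT were each at 6. The share over all start-site peaks is not given for 200 bp, so nothing is read from these counts. Within 100 bp of the summit, on either strand, TATCGATA, the DRE to which DREF binds, was present at 3 of 12 member peaks (Taf7, MED17 and MED25), against 9.05% of the 2089 start-site peaks. CGATA, which every DRE contains, was present at 5 of 12, against 40.5%. GAGAG, the GAGA factor repeat, was at 2 of 12 (MED30 and MED4) against 23.4%, CAGCTG, an E-box core, at 1 (MED30) against 14.6%, TATAAA at 2 against 25.6%, and TCAGT, an initiator core, at 3 against 34.3%. The CAGCTG counted at MED30 is not the one in capitals above, which lies more than 100 bp from the summit. GGTCACAC, the core of motif 1 bound by M1BP, was at 0 of 12 against 5.60%. The sequence around the MED17 and MED25 summits is shown up to the start site for the place of the DRE, with capitals as before, together with 100 bp to each side of the Taf4 summit, which has none of these motifs in capitals. The windows are chr3R:18188944-18189071, chr3R:20008752-20008946 and chr3L:16113542-16113742, all on the plus strand.
MED17: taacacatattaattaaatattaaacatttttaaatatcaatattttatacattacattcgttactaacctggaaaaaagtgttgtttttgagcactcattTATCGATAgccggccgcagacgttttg
MED25: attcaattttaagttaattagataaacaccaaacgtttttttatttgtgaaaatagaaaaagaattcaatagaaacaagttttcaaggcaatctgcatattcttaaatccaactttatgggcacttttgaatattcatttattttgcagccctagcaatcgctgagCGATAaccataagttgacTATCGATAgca
Taf4: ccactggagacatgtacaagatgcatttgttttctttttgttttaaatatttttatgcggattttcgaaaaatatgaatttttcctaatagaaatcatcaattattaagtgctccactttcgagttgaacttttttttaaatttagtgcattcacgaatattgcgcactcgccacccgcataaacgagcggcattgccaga
At MED17 and MED25 the DRE lies between the thresholded summit and the start site, toward the 3′ end of the window shown. This does not hold for replicate 2 at MED17, whose strongest summit lay 3 bp downstream of the start site.

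The M1BP motif core was found in promoters of some of the members without a peak. In the 250 bp before to 50 bp after the start site, GGTCACAC was present on either strand at 9 of 25 Mediator genes (MED8, MED10, MED11, MED15, MED19, MED20, MED22, MED23 and MED24) and at 2 of 15 TFIID genes (Taf1 and Taf5), against 7.53% of all protein-coding genes. None of the 12 members with a peak held it and 11 of the 28 without one did. Over all genes with a peak, 10.9% held it, more than the 7.53% of all genes. The members' split goes the other way, rests on 12 genes with a peak, and was not tested. The DRE was present at 7 of 25 Mediator promoters and 1 of 15 TFIID promoters (Taf3), against 9.01% of all. Head-to-head genes share part of these windows, and the letters alone are a description, not evidence of binding by M1BP or DREF.

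Beyond the start-site window, MED15 and Taf12 had a thresholded peak close by. The tail gene MED15 had a strong one 531 bp upstream (chr2L:472318-472627, signal 643, rank 169), just outside the 500 bp limit and 282 bp from the start site of CG4297. It stood at 8.98, 11.3 and 10.4 times the list median in the 3 replicates (10.2 ± 1.15, SD, n = 3), next to MED30 in strength. A peak of signal 197 lay 1436 bp from the Taf12 start site, past the end of the gene and 138 bp from the start site of CG18476 (chr3R:11678042-11678465). No other member had a thresholded summit in its gene span outside the start-site window or within 1500 bp of a start site.

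The partners of these genes that carry other names gave mixed values. For comparison, 18.4% of all protein-coding genes had a thresholded start-site peak. Of the kinase module, skd (Med13) had a peak 467 bp upstream of a start site (signal 203), while Cdk8 (96.7), CycC (63.7) and kto (42.3) had relaxed regions only, 1 of 4 in all. Tbp itself had a relaxed region of signal 34.5, near the floor of the list. Of its relatives, Trf2 reached 108 and Trf, which shares a promoter region with MED20, had no pooled region. The testis TAF genes can, mia, nht and sa had no pooled region either. The other general factor genes carried peaks in 7 of 13 cases, led by TfIIA-S (346), and SAGA genes in 5 of 15, led by Gcn5 (237), the acetyltransferase.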

How the data were processed

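Per the inventory texts deposited with the samples, the authors listed relaxed regions for each replicate, and for the 3 replicates pooled, from dm6 alignments and 1 control file, and derived the thresholded list from these by the irreproducible discovery rate. No source used here names the aligner, the peak caller or the thresholds. The deposited signal is the value the authors' caller gave each region, on an unstated scale; it was used within a list, or divided by the list's median between replicates. Summits were placed from the deposited offsets, in bp. The depth of the replicates is unknown.

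Start sites (19630 of 13968 protein-coding genes on 2L, 2R, 3L, 3R, 4, X and Y) came from Ensembl release 115, and sequence from RefSeq. Coordinates are 1-based. Every list column used is on dm6; dm3 lists were not used. The strongest 4055 regions of a replicate match the size of the thresholded list. A gene's signal is that of its strongest summit within 500 bp of a start site. Member genes, lists and motifs were chosen with earlier results of these data known, so no list was tested. Named by rule were members with a thresholded peak, with a pooled signal of at least 100 or with none, and genes sharing a member's peak. Remaining members and genes of the partner lists, and the splits by neighbour, gap and chromosome, were chosen for the text after their values were seen. Older symbols were matched through the RefSeq table (rye to Taf12L, Tfb2 to mrn, SAF6 to Saf6); Ataxn7 was not matched. The assignment was tested on simulated data. Python 3.11.15, NumPy 2.4.6, pandas 2.3.3, SciPy 1.17.1 and matplotlib 3.10.9 were used. Alternatives are given in the closing section.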

Additional observations from a re-analysis of the deposited data

How the results depend on the processing

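The count of 12 members (9 Mediator, 3 TFIID) stood beside 18.4% of all genes. The count was 11 with a 200 bp window (13.9% of all genes) and 13 with a 1000 bp window (21.4%). It was 9 with overlap of the peak interval (12.6%) and 11 with the longest transcript's start only (16.5%). Among the 2027 stronger thresholded peaks it was 7, with 5 Mediator genes and 10.1% of all genes, and with each summit given to the nearest start site only it was 7, with 1 TFIID gene (13.9% of all genes). Requiring a strongest-region summit within 200 bp of the peak summit in all 3 replicates left 8 members (MED25, MED31, Taf2 and Taf7 were lost), 1 TFIID gene and 12.1% of all genes. Without replicate 1, 2 or 3, with that support asked of the remaining pair, the members numbered 9 each time, with 7 to 8 Mediator genes, 1 to 2 TFIID genes and 13.5% to 13.7% of all genes; without replicate 1 and without replicate 2, Taf4 was the TFIID gene left. Mediator's share was above that of TFIID in every setting run, and the TFIID share was below that of all genes in the settings with 1 TFIID gene (6.67%), without replicate 3 (13.3%) and with a 1000 bp window (20.0% against 21.4%). The median member signal of 82.2 became 71.8 with a 200 bp window, 90.0 with 1000 bp and 98.9 over members with a summit. The mean share of members among a replicate's strongest regions, 30.8%, became 15.8% with 2027 regions per replicate and 47.5% with 2 times as many. The share of all genes at these list sizes is not given, so the members are not set against it there. Motif counts rest on 12 peaks: the DRE was at 1 within 50 bp and 4 within 200 bp, CGATA at 2 and 5, GAGAG at 1 and 3, CAGCTG at 0 and 1, TATAAA at 1 and 6, TCAGT at 0 and 6, and GGTCACAC at 0 in both. The share over all start-site peaks is not given for these distances. No paired analysis was possible because there is a single group. Without depths, a missing region cannot be told apart from one too weak to be listed.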

Other observations

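Some of these genes share a promoter region with a gene of related function. Taf10 and Taf10b, both histone-fold TAF genes, start 45 bp apart head to head, and MED20 starts 47 bp from Trf. Neither pair carried a thresholded peak, and MED20 and Trf had no pooled region within 500 bp of a start site.

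By chromosome arm the members' peaks were mostly on 3R and 3L. On 3R, 7 of 10 members carried a peak and on 3L 4 of 12, against 20.3% and 18.5% of all genes there. On 2R, 1 of 5 members did, against 18.6%. On 2L, X and chromosome 4, 0 of 7, 0 of 4 and 0 of 2 members did, against 17.6%, 16.8% and 12.5% of all genes. The arms were compared after the values were seen, and no test was made.

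Ranks of the start-site signal agreed between replicates about as well at the 12 members with a peak as at other genes. Spearman's rho across these 12 genes was 0.818, 0.678 and 0.713 for replicates 1 and 2, 1 and 3, and 2 and 3, against 0.763, 0.749 and 0.761 across 2550 genes with a peak and a region in every replicate; genes are not independent replicates.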
